A study of Mus with 8 samples.

Results

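Mouse skin treated with microsphere keratin was compared with skin treated with plain keratin, both applied topically at 1% for 20 days. The comparison used the 2 arrays titled Sphere keratin and the 2 titled Keratin, 4 of the 8 arrays in the series, chosen by their titles alone. The tissue was skin with its hair follicles from male C57BL6 mice aged 7 weeks, whose hair had been trimmed and depleted before treatment, in 4 groups of 5 mice. The other groups received 1% minoxidil, a vasodilator used against hair loss that served as the positive control, or MilliQ water, called untreated here. The labels give no composition, source or particle size for either keratin, nor a group treated with empty microspheres, so the form of the keratin and the particle itself cannot be told apart. The labels number the arrays 1 and 2 in each group, but whether a number stands for an animal, a pool of animals or a second hybridisation of one sample is not stated. P-values therefore measure only the spread between arrays, which may be technical, and the number of arrays limits the precision.

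Hair grows from the bulb of the follicle, where matrix cells divide under Wnt, sonic hedgehog and bone morphogenetic protein signals and then differentiate into the hair shaft and the inner root sheath. Shaft cells first make hair keratins, which assemble into filaments, and later keratin-associated proteins, which cross-link those filaments. The keratin-associated proteins fall into 3 classes, named for ultra-high sulfur, high sulfur, and high glycine and tyrosine content. The skin between follicles is covered by epidermis, whose basal cells express Krt5 and Krt14 and whose suprabasal cells express Krt1, Krt10 and the proteins of the cornified envelope.

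Values are intensities of the deposited value table, which are linear, and differences are microsphere keratin minus keratin on the log2 scale. A gene is represented by the probeset with the highest mean over all 8 arrays, and 11235 genes whose mean reached the 25th percentile were tested. The median intensity was 36.5 and 37.4 in the microsphere keratin arrays, against 37.1 and 37.2 in the keratin arrays. The 3′ beta-actin control probeset read 1448 and 1679 in the microsphere keratin arrays, against 1589 and 1613 in the keratin arrays. The 3′ Gapdh control probeset read 1273 and 1006 in the microsphere keratin arrays, against 630 and 1465 in the keratin arrays, so keratin array 1 was the lowest of the 4. The labelled tissue was borne out by Krt5, which read 494 and 477 in the microsphere keratin arrays and 575 and 580 in the keratin arrays, and by the hair keratin Krt35, which ranged over the 4 arrays between 91.2 and 412. Each array correlated best with the same-numbered array of the other group (r = 0.973 for the number 1 arrays and 0.972 for the number 2 arrays, across all probesets). Between the 2 arrays of a group, r was 0.941 for microsphere keratin and 0.947 for keratin. The same-numbered pairs are therefore given one by one below, although no label says that a shared number means a shared batch or animal.

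No gene passed the test between the treatments. With limma, 0 of 11235 genes (0%) had a Benjamini-Hochberg adjusted p below 0.05, and the smallest adjusted p was 1.00. Before adjustment, 52 genes (0.463%) had a p below 0.05, where evenly spread p-values would give 562. The median difference over all genes tested was -0.01 (-0.03 in the number 1 pair, 0.00 in the number 2 pair). For 1177 genes (10.5%) both microsphere keratin arrays read below both keratin arrays, and for 573 genes (5.1%) both read above. What follows describes how named genes and gene lists lay in the 4 arrays; their counts are to be read against these percentages. A difference of at least 1.5-fold in both pairs was found for 4 genes lower in microsphere keratin (0.0356%), namely Cfd, Hp, Krtap4-16 and Krtap4-6, and for 0 genes higher (0%).

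The ultra-high-sulfur keratin-associated proteins, which give the shaft its densest disulfide cross-links, were read lower after microsphere keratin than after plain keratin. All 12 genes tested had a negative mean difference (background 54.4%), with a median of -0.62 (-0.80 in the number 1 pair, -0.41 in the number 2 pair). For 11 of the 12, both microsphere keratin arrays lay below both keratin arrays (background 10.5%), and 11 were lower in both pairs (background 23.6%). Without keratin array 1 the median was -0.38, and without keratin array 2 it was -0.94. In bulk skin, fewer cells of a type and less RNA per cell cannot be told apart. These genes are near-identical copies in places and their probesets may share transcripts, so single members are uncertain.

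Krtap17-1, a shaft protein of the ultra-high-sulfur class, had intensities of 146 and 158 in the microsphere keratin arrays, against 470 and 219 in the keratin arrays. The groups did not overlap, and keratin array 1 stood above the rest. The mean difference was -1.08 (SE 0.45, limma, n = 2 arrays each), a 2.12-fold lower level; the number 1 pair differed by -1.69 and the number 2 pair by -0.47. Krtap5-4 read 46.1 and 51.9 after microsphere keratin, against 103 and 68.2 after keratin, a mean difference of -0.78 (SE 0.24). Krtap5-1 read 47.8 and 50.4 after microsphere keratin, against 98.0 and 68.9 after keratin, a mean difference of -0.74 (SE 0.22). Krtap5-2 read 33.3 and 36.7 after microsphere keratin, against 52.2 and 45.3 after keratin. Its difference was -0.48 (SE 0.12), and it had the smallest unadjusted p of the class, with an adjusted p of 1.00 in limma. All 3 Krtap5 genes were lower in both pairs, and their microsphere keratin values, 33.3 to 51.9, lay near the array medians of 36.5 and 37.4.

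In the Krtap4 family the groups were likewise apart. Krtap4-16 read 70.4 and 53.8 in the microsphere keratin arrays, against 132 and 81.0 in the keratin arrays, with differences of -0.90 and -0.59 in the number 1 and number 2 pairs. Krtap4-6 read 67.3 and 51.9 after microsphere keratin, against 115 and 78.2 after keratin. Krtap4-1 read 56.0 and 49.2 after microsphere keratin, against 105 and 66.2 after keratin. Within each group of this family, array 1 read above array 2, and in each the highest microsphere keratin array still lay below the lowest keratin array. The mean differences of Krtap4-1, Krtap4-7 and Krtap4-2 were -0.67, -0.56 and -0.38. Outside the Krtap4 and Krtap5 families, Krtap12-1 read 66.2 and 57.1 after microsphere keratin, against 117 and 69.9 after keratin, and Krtap9-3 had a mean difference of -0.22. Krtap28-13 was the 1 gene of the list whose groups overlapped, with differences of -0.46 and 0.08 in its pairs. The places of Krtap28-13 and Krtap12-1 in this class are uncertain, and the counts by class depend on how such genes are placed.

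The other 2 classes of keratin-associated proteins differed less. Among the 10 high-sulfur genes tested, 9 had a negative mean difference (background 54.4%), with a median of -0.20. Only Krtap3-3 had groups that did not overlap (background 10.5%). Krtap3-3 read 50.2 and 49.4 in the microsphere keratin arrays, against 88.1 and 62.8 in the keratin arrays, a mean difference of -0.58 (SE 0.21). Krtap1-5 read 92.9 and 83.1 after microsphere keratin, against 160 and 91.1 after keratin, so that keratin array 2 lay within the range of the microsphere keratin arrays. Without 1 array the high-sulfur median was 0.00 (keratin array 1), -0.45 (keratin array 2), -0.42 (microsphere keratin array 1) or -0.09 (microsphere keratin array 2). The 12 high-glycine-tyrosine genes tested were all lower on average (background 54.4%), with a median of -0.17. That median was -0.06 without keratin array 1 and -0.25 without microsphere keratin array 1. Of the 12 genes, 6 were without overlap (background 10.5%). Among these was Krtap21-1, which read 35.6 and 35.0 after microsphere keratin, against 39.9 and 45.7 after keratin, a mean difference of -0.27 (SE 0.10). Its microsphere keratin values lay below the array medians of 36.5 and 37.4. The largest mean difference in the class was -0.53. Krtap6-2 read 41.9 and 42.6 after microsphere keratin, against 45.9 and 55.9 after keratin; for both genes keratin array 2 was the higher one. Krtap8-1, the brightest of the class at 268 and 309 after microsphere keratin and 326 and 294 after keratin, overlapped.

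**Figure D1:**
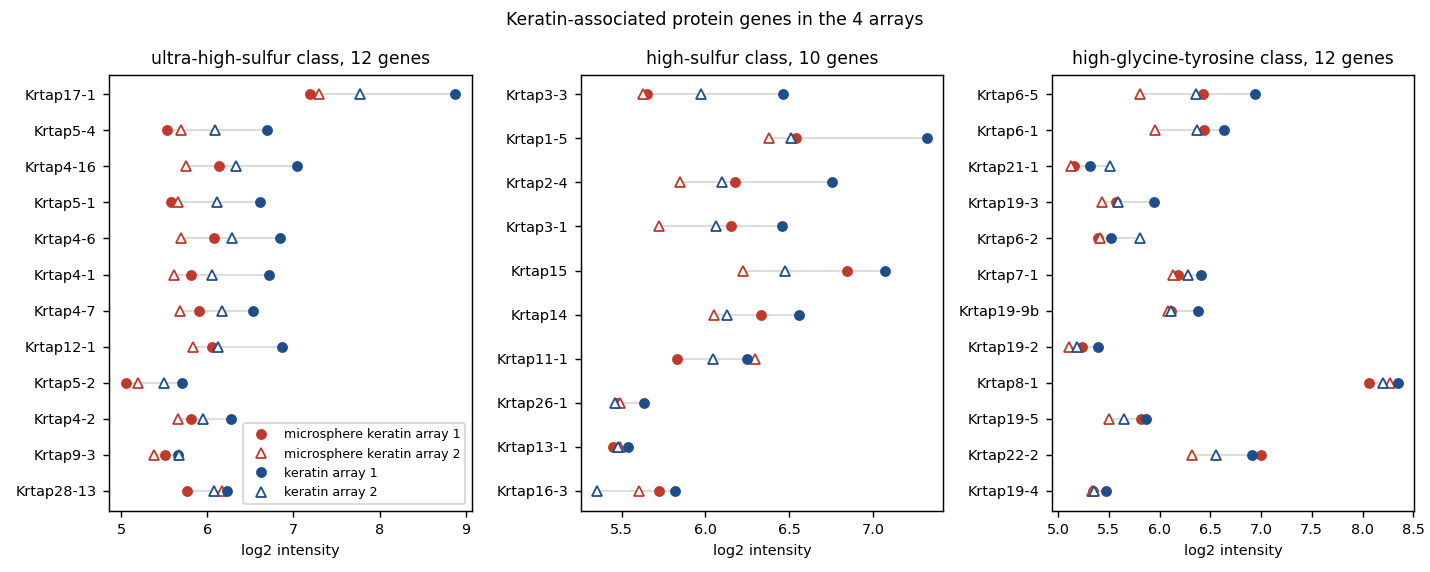
Log2 intensity (horizontal axis) of each keratin-associated protein gene tested in the 3 classes, 1 row per gene and 1 point per array, for the 2 microsphere keratin and the 2 keratin arrays. In the ultra-high-sulfur panel the microsphere keratin points lie left of the keratin points for 11 of 12 genes, in the high-sulfur panel for 1 of 10 and in the high-glycine-tyrosine panel for 6 of 12.

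Over the 3 classes and Krtap31-1, a gene in none of them, 35 of the 38 named keratin-associated protein genes were tested. Of the 35, 19 did not overlap, each of them lower after microsphere keratin (background 10.5%). Krtap31-1 was among the 19, with a mean difference of -0.11. The remaining 3 lay below the intensity limit, with differences between -0.07 and -0.04. Krtap16-3 was the only tested member with a positive mean difference, 0.08, and read 52.8 and 48.7 after microsphere keratin, against 56.4 and 40.9 after keratin, so its groups overlapped. Krtap16-3 was counted as high-sulfur, and its place in that class is uncertain. The median over the 35 genes was -0.27, and it ranged between -0.44 and -0.12 when 1 array was left out, nearest to 0 without keratin array 1 and farthest without keratin array 2. It was -0.41 without microsphere keratin array 1.

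As a list, hair keratins did not share the order of the keratin-associated proteins, although several are neighbours of them in the genome. By the RefSeq gene order of GRCm38.p6, 12 of the tested keratin-associated protein genes stand together with 7 type I hair keratin genes, joined where gene starts lie within 500 kb of the next. All 12 keratin-associated protein genes there were lower after microsphere keratin, 9 without overlap (background 10.5%), with a median of -0.51. Of the 7 hair keratin genes of the same neighbourhood, 3 were lower and 0 of them without overlap, and their median was 0.09. The epidermal keratin gene Krt10, in this neighbourhood too, was lower without overlap (-0.37). The 4 type II hair keratin genes Krt81, Krt86, Krt84 and Krt82, which stand elsewhere, were all lower (background 54.4%), with a median of -0.06. Of these, 2 were without overlap (background 10.5%). Another neighbourhood held 18 keratin-associated protein genes, most of them of the glycine- and tyrosine-rich class. Of the 18, 17 were lower (background 54.4%), 6 without overlap (background 10.5%), with a median of -0.13. The 3 Krtap5 genes form a neighbourhood of their own, with a median of -0.74.

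Krt31, a cortex keratin, read 44.2 and 143 in the microsphere keratin arrays, against 55.2 and 68.2 in the keratin arrays. Krt35, the first type I keratin of the differentiating shaft, read 91.2 and 412 after microsphere keratin, against 107 and 237 after keratin. Its type II partner Krt85 read 61.1 and 143 after microsphere keratin, against 78.4 and 101 after keratin. For these 3 genes microsphere keratin array 1 was the lowest and array 2 the highest of the 4, so the groups overlapped and the pair differences had opposite signs (-0.32 and 1.07 for Krt31, -0.23 and 0.80 for Krt35, -0.36 and 0.51 for Krt85). Across the 12 hair shaft keratins the median was -0.05 (-0.22 for the number 1 arrays, 0.15 for the number 2 arrays). Krt86 and Krt84 were the 2 of the 12 that did not overlap, both lower (background 10.5%). Krt86 read 39.1 and 40.2 after microsphere keratin, against 46.5 and 43.4 after keratin, and Krt84 differed by -0.06. The Krt86 values after microsphere keratin lay near the array medians of 36.5 and 37.4.

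The inner root sheath and companion layer, which surround the growing shaft, showed the same disagreement between pairs. Their 6 keratins, among them Krt27, Krt71 and Krt75, were all lower in the number 1 pair, with a median of -0.36, whereas the number 2 pair had a median of 0.18, and 0 of 6 had separate groups. Among 16 genes of hair cornification the median was -0.11 and 3 did not overlap, all lower (background 10.5%). Without keratin array 1 the median turned to 0.05. Psors1c2 read 50.1 and 57.5 in the microsphere keratin arrays, against 110 and 67.2 in the keratin arrays, a mean difference of -0.68 (SE 0.27). Trichohyalin, Tchh, the matrix protein of the inner root sheath, read 346 and 639 after microsphere keratin, against 425 and 365 after keratin, with differences of -0.30 and 0.81 in the number 1 and number 2 pairs. Of 15 transcription factors of the shaft and matrix, 11 read lower after microsphere keratin in array 1, and 14 read higher in array 2. Hoxc13, a regulator of hair keratin genes, read 77.9 and 226 after microsphere keratin, against 127 and 199 after keratin, and so overlapped.

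**Figure D2:**
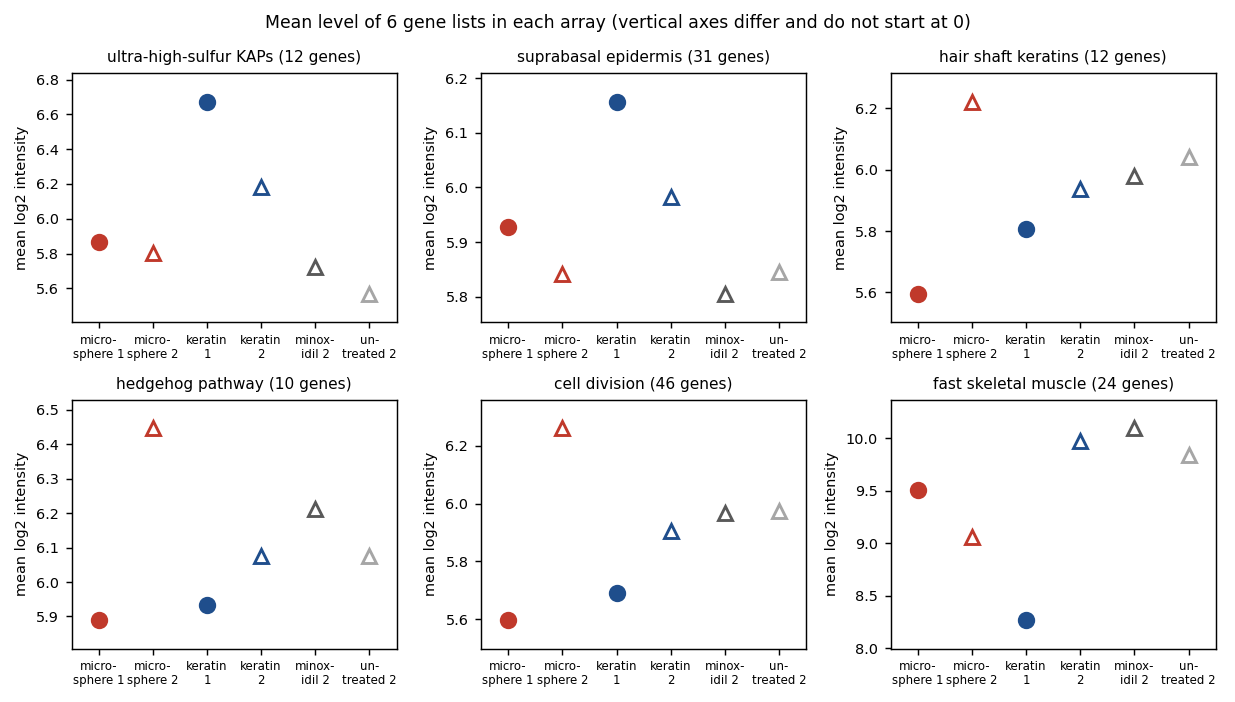
Mean log2 intensity (vertical axes, which differ between panels and do not start at 0) of 6 gene lists in each of 6 arrays: microsphere keratin 1 and 2, keratin 1 and 2, minoxidil 2 and untreated 2. The ultra-high-sulfur list lies at 5.87 and 5.80 in the microsphere keratin arrays, below 6.67 and 6.18 in the keratin arrays, while the hair shaft keratins lie at 5.60 and 6.22 in the microsphere keratin arrays, on both sides of 5.81 and 5.94 in the keratin arrays.

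Suprabasal epidermis genes were also read lower in both pairs. Of 35 named genes 31 were tested, and 26 had a negative mean difference (background 54.4%), with a median of -0.20. Among the 31, 20 were lower in both pairs (background 23.6%) and 12 did not overlap, all lower (background 10.5%). The median was -0.026 without keratin array 1 and -0.13 without microsphere keratin array 2. Krt1, the type II keratin of suprabasal cells, read 45.1 and 50.2 in the microsphere keratin arrays, against 63.5 and 80.8 in the keratin arrays, a mean difference of -0.59 (SE 0.19). Krtdap, a protein of differentiating keratinocytes, read 58.2 and 54.3 after microsphere keratin, against 77.6 and 77.8 after keratin, a mean difference of -0.47 (SE 0.18). Krt77, a suprabasal type II keratin, read 74.8 and 78.8 after microsphere keratin, against 104 and 117 after keratin, a mean difference of -0.53 (SE 0.24). For these 3 genes the arrays of a group lay close together and the pair differences were of similar size, -0.49 and -0.69 for Krt1, -0.42 and -0.52 for Krtdap, and -0.48 and -0.58 for Krt77. Krt10, the partner of Krt1 and named after its values were seen, read 64.5 and 62.2 after microsphere keratin, against 71.9 and 93.8 after keratin. Loricrin, Lor, a main protein of the cornified envelope, read 48.5 and 47.8 after microsphere keratin, against 53.4 and 73.5 after keratin. Kprp overlapped, with 50.3 and 41.2 after microsphere keratin and 76.7 and 46.3 after keratin. The neighbourhood that holds Lor, Ivl and the late cornified envelope genes had 16 tested members, with a median of -0.19. Of these, 14 were lower (background 54.4%) and 8 were lower without overlap (background 10.5%).

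Basal keratinocyte genes differed less and less evenly. Of 14 tested, 12 had a negative mean difference (background 54.4%), with a median of -0.12, and 4 did not overlap, all lower (background 10.5%). The median was -0.07 without keratin array 2 and -0.08 without microsphere keratin array 1. Krt14 read 386 and 227 after microsphere keratin, against 435 and 278 after keratin, and overlapped. Col17a1, a hemidesmosomal collagen, read 94.9 and 72.6 after microsphere keratin, against 101 and 147 after keratin, and Dst, a linker of hemidesmosomes to keratin filaments, read 148 and 112 after microsphere keratin, against 158 and 203 after keratin. Both differed by -0.10 between the number 1 arrays, and by -1.02 and -0.86 between the number 2 arrays, so most of their mean difference came from the number 2 arrays. Trp63, the transcription factor that maintains basal keratinocytes, went the other way, at 192 and 285 after microsphere keratin and 170 and 199 after keratin, with overlap. Among 12 genes of wounded or stressed epidermis the median was -0.06 and 3 did not overlap, all lower (background 10.5%). That median was 0.08 without keratin array 1, -0.19 without keratin array 2, -0.10 without microsphere keratin array 1 and -0.02 without microsphere keratin array 2. Serpinb2, a protease inhibitor of stressed keratinocytes, read 53.0 and 45.3 after microsphere keratin, against 66.5 and 70.9 after keratin. Sprr1a differed by -0.54 on average but read 225 and 91.1 after microsphere keratin and 350 and 123 after keratin, so its arrays differed more by number than by treatment.

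Ordered by the gap between the groups, the 12 named genes with the widest gap on the lower side were mostly of hair shaft and epidermis: Krtap17-1, Krtap5-1, Krtdap, Krt77, Krtap5-4, Krt1, Serpinb2, Nuak1, Krtap3-3, Mfap3l, Krtap5-2 and Slc2a1. The gap is the distance on the log2 scale between the nearest arrays of the 2 groups. It was -0.29 for Slc2a1, the last gene included, and -0.29 also for Chac1 and Egln3, the next in order. Nuak1, a kinase of the AMPK family, read 60.5 and 59.5 in the microsphere keratin arrays, against 75.8 and 105 in the keratin arrays. Mfap3l, a membrane protein gene, read 41.3 and 40.7 after microsphere keratin, against 51.6 and 51.1 after keratin. Slc2a1, the glucose transporter of keratinocytes and many other cells, read 58.6 and 77.6 after microsphere keratin, against 104 and 94.9 after keratin. The ordering uses these 4 arrays themselves and is a description.

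The 12 genes with the widest gap on the higher side came from several cell functions, and none was in a hair or epidermis list. Pdap1, a phosphoprotein named for its association with platelet-derived growth factor, read 173 and 189 in the microsphere keratin arrays, against 116 and 126 in the keratin arrays. Its mean difference was 0.58 (SE 0.30), and it was 0.58 in both pairs. Pdia3, a disulfide isomerase of the endoplasmic reticulum, read 65.1 and 73.3 after microsphere keratin, against 51.5 and 50.8 after keratin. Tfrc, the transferrin receptor for iron uptake, read 107 and 146 after microsphere keratin, against 87.7 and 85.0 after keratin. Rfc1, a subunit of the clamp loader of DNA replication, read 63.4 and 67.2 after microsphere keratin, against 49.3 and 51.1 after keratin. These genes did not overlap between the groups, by the way they were chosen. Shmt1, an enzyme of one-carbon metabolism, and Rab5c, a small GTPase of early endosomes, had mean differences of 0.36 and 0.29. Bzw2 and Cul4a read 130 and 325 in untreated array 2, above all 4 arrays compared here. The others of the 12 were Hacd1, Snrnp48, Aqp4 and Slc36a4, with mean differences between 0.25 and 0.44.

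**Figure D3:**
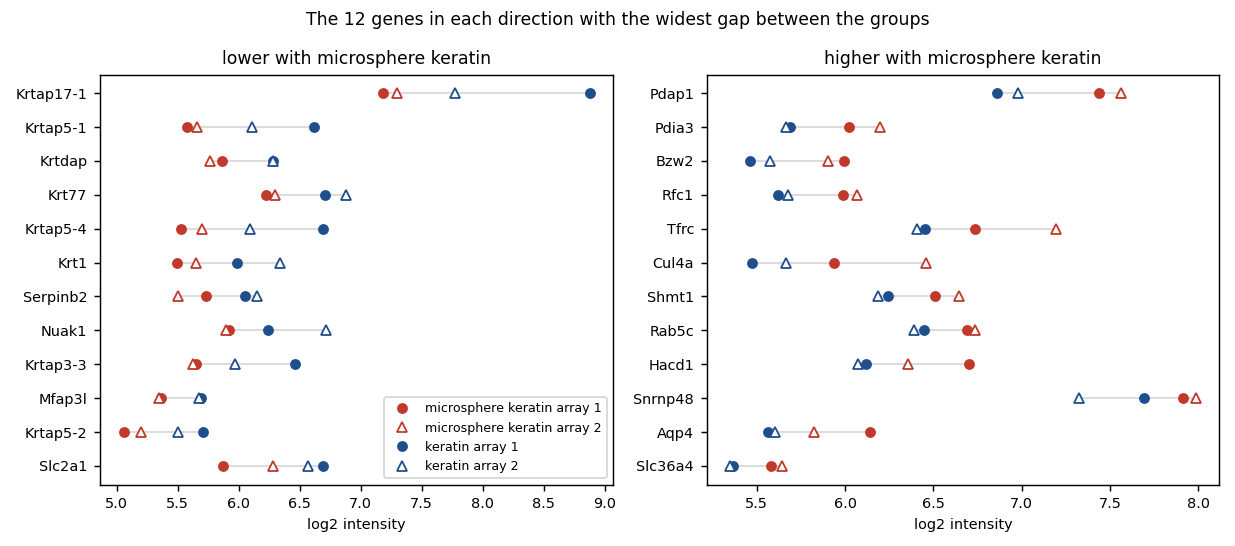
Log2 intensity (horizontal axis) of the 12 genes in each direction with the widest gap between the groups, 1 row per gene and 1 point per array, for the 2 microsphere keratin and the 2 keratin arrays. The groups are apart in every row by the way the genes were chosen, with microsphere keratin lower in one panel and higher in the other.

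Cell division genes differed in direction between the pairs. In bulk skin their signal cannot be assigned to the hair matrix or to other dividing cells. Of 46 cell division genes, 37 had a positive mean difference with a median of 0.12, but the number 1 pair had 31 of them lower and the number 2 pair 45 higher; 15 were higher in both pairs (background 17.2%). Groups did not overlap for 2 genes in the higher direction (background 5.1%) and 1 in the lower (background 10.5%). Tyms, the thymidylate synthase that makes a DNA precursor, was one of the 2, at 38.1 and 46.1 in the microsphere keratin arrays and 31.3 and 34.8 in the keratin arrays, a mean difference of 0.34 (SE 0.11). Its keratin values lay below the array medians of 37.1 and 37.2. Uhrf1, which keeps DNA methylation through replication, read 58.5 and 135 after microsphere keratin, against 53.2 and 72.0 after keratin. Mki67, a proliferation marker, read 93.5 and 285 after microsphere keratin, against 96.0 and 180 after keratin. In both groups array 2 read above array 1, and the distance was wider within microsphere keratin. The mean level of the list was 5.60 and 6.26 in the microsphere keratin arrays, and 5.69 and 5.91 in the keratin arrays. The list median was -0.20 without microsphere keratin array 2, 0.44 without microsphere keratin array 1, 0.01 without keratin array 1 and 0.21 without keratin array 2.

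Hedgehog signalling, which drives growth of the hair bulb, was read from 10 genes with a median of 0.11 (-0.04 for the number 1 arrays, 0.21 for the number 2 arrays). The median was 0.35 without microsphere keratin array 1, -0.09 without microsphere keratin array 2 and 0.02 without keratin array 1. The ligand Shh read 42.2 and 137 in the microsphere keratin arrays, against 44.5 and 44.1 in the keratin arrays, so only microsphere keratin array 2 stood apart. The receptor Ptch1, itself a target of the pathway, read 63.1 and 194 after microsphere keratin, against 62.3 and 114 after keratin. Gli1, a target and effector of the pathway, read 47.0 and 81.6 after microsphere keratin, against 43.0 and 60.2 after keratin. All 3 were brightest in microsphere keratin array 2. Gli3 was without overlap, at 56.2 and 54.1 after microsphere keratin and 51.9 and 48.5 after keratin. Of the 10 hedgehog genes, 1 did not overlap in the higher direction (background 5.1%) and 0 in the lower (background 10.5%). Wnt5a, a Wnt ligand, read 39.5 and 85.3 after microsphere keratin, against 44.8 and 44.2 after keratin, again high in microsphere keratin array 2 alone. The secreted inhibitor Wif1 did not overlap, at 50.4 and 65.3 after microsphere keratin and 48.4 and 40.5 after keratin. The medians of the 20 Wnt and 14 bone morphogenetic protein genes were 0.00 and 0.01. Of the 20 Wnt genes, 10 were higher and 10 lower on average. Among them 1 did not overlap in the higher direction (background 5.1%) and 1 in the lower (background 10.5%). Melanocyte genes, which are active in the pigmented hair bulb, had a median of 0.13 over 15 genes (-0.03 for the number 1 arrays, 0.17 for the number 2 arrays). That median was 0.06 without microsphere keratin array 1, -0.0052 without microsphere keratin array 2 and 0.08 without keratin array 2. Dct, a melanin enzyme, read 54.5 and 104 after microsphere keratin, against 48.8 and 57.6 after keratin.

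Among growth factors of hair and their binding proteins, 21 genes had a median of -0.01. Igfbp3, which binds insulin-like growth factors, read 45.4 and 52.7 in the microsphere keratin arrays, against 60.3 and 85.0 in the keratin arrays, a mean difference of -0.55 (SE 0.22). Fgf7, a keratinocyte growth factor made by dermal cells, read 37.2 and 37.5 after microsphere keratin, against 55.7 and 41.1 after keratin. Both genes were without overlap and lower in both pairs, but the Fgf7 values after microsphere keratin lay near the array medians of 36.5 and 37.4. Of the 21 genes, 11 were lower on average (background 54.4%) and 10 higher. Groups did not overlap for 3 genes in the lower direction (background 10.5%) and 2 in the higher (background 5.1%). The medians of 15 regression-phase, 14 bulge stem cell and 11 dermal papilla genes were 0.03, 0.01 and -0.05. Krt15, a keratin of the bulge and basal layer, read 178 and 84.0 after microsphere keratin, against 154 and 169 after keratin, so that microsphere keratin array 2 stood below the rest.

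**Figure D4:**
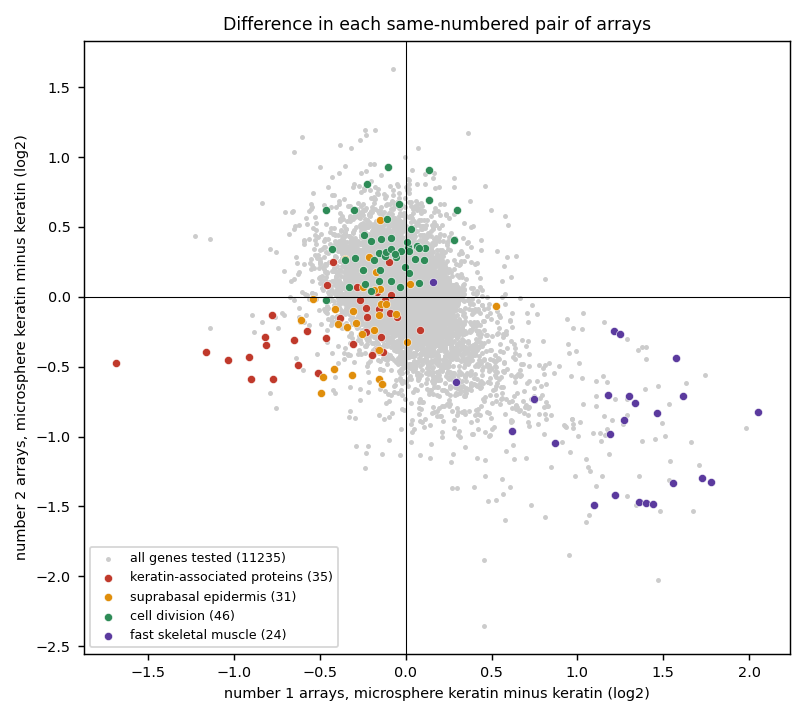
Difference between microsphere keratin and keratin (log2) in the number 1 arrays (horizontal axis) and in the number 2 arrays (vertical axis), 1 point per gene tested, with members of chosen gene lists coloured. Keratin-associated protein genes lie mostly in the lower left, negative on both axes (28 of 35), and fast skeletal muscle genes lie in the lower right, positive for number 1 and negative for number 2 (23 of 24).

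The 2 pairs had the same sign for 40.8% of all genes, and genes of skeletal muscle, a layer that lies beneath the skin, were the clearest of those that did not. All 24 fast skeletal muscle genes were higher after microsphere keratin in the number 1 pair, with a median of 1.29, and 23 were lower in the number 2 pair, with a median of -0.86. Ckm, the muscle creatine kinase, read 1199 and 898 in the microsphere keratin arrays, against 289 and 1589 in the keratin arrays. The 2 keratin arrays were thus the lowest and the highest of the 4. The mean level of the list was 9.51 and 9.06 in the microsphere keratin arrays, against 8.27 and 9.97 in the keratin arrays. The median over both pairs was 0.16, and it was -0.65 without keratin array 1 and 1.02 without keratin array 2. Genes of mitochondrial oxidative phosphorylation, in which muscle is rich, had the same pattern at a smaller size: of 72 tested, the number 1 pair had 67 higher (median 0.43) and the number 2 pair 66 lower (median -0.39).

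A difference of at least 2-fold between the number 1 arrays was found for 6 genes lower (0.0534%) and 78 genes higher after microsphere keratin (0.694%). Between the number 2 arrays it was found for 73 genes lower (0.65%) and 12 genes higher (0.107%). For 30 genes (0.267%) the same gene was at least 2-fold higher for number 1 and at least 2-fold lower for number 2, and the reverse held for 0 genes (0%). The fast skeletal muscle list held 8 of the 30. Muscle genes outside that list were also among the 30, such as Myoz1, Myom1 and Mybpc2, named after inspection. Trim63, a ubiquitin ligase of muscle protein breakdown named here after inspection of its values, read 128 and 72.9 in the microsphere keratin arrays, against 46.1 and 298 in the keratin arrays. Pdk4, a kinase that limits glucose oxidation and was likewise named after inspection of its values, read 371 and 219 after microsphere keratin, against 133 and 632 after keratin. These genes stood lowest in keratin array 1 and highest in keratin array 2. The 17 clock genes were all lower in the number 2 pair, with a median of -0.26, while 13 were higher in the number 1 pair. Labels give no time of day for the tissue, and its part was not tested.

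The keratin array with the lowest muscle level was also the one with the highest keratin-associated protein levels, keratin array 1. The part that tissue composition has in the keratin-associated protein differences was not tested. The ultra-high-sulfur list had a mean level of 5.87 and 5.80 in the microsphere keratin arrays, against 6.67 in keratin array 1 and 6.18 in keratin array 2, whose muscle level was the highest of the 4.

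**Figure D5:**
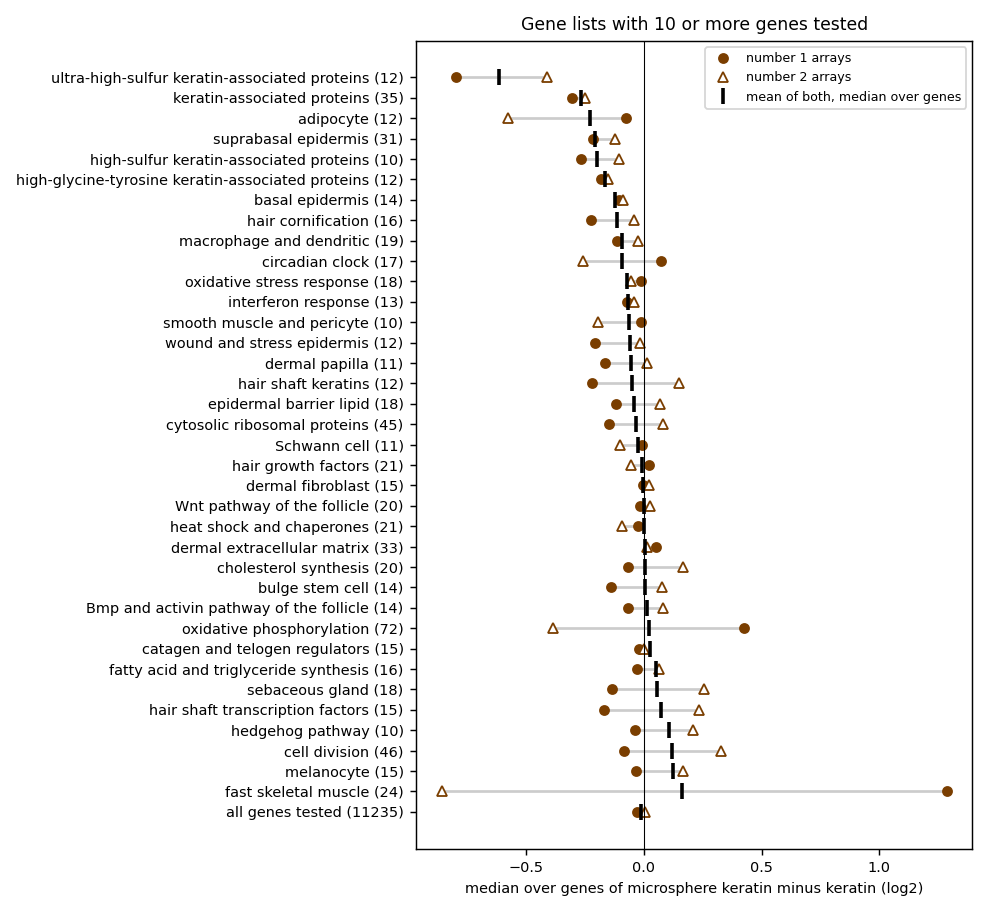
Median over genes of the difference between microsphere keratin and keratin (log2, horizontal axis) for each gene list with 10 or more genes tested, with a bar for the mean of the arrays, a filled point for the number 1 pair and an open triangle for the number 2 pair; the number of genes is in brackets. All 3 marks lie below 0 for the keratin-associated protein classes and the suprabasal list. The same holds for other lists, among them basal epidermis, hair cornification, wound and stress epidermis, adipocyte, macrophage and dendritic, and interferon response. The marks of the 2 pairs lie on opposite sides of 0 for fast skeletal muscle (1.29 and -0.86) and oxidative phosphorylation (0.43 and -0.39).

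Fat cell genes were lower after microsphere keratin in 10 of 12 cases (background 54.4%), with a median of -0.23. Groups did not overlap for 2 of the 12, both lower, near the background of 10.5%. The median was 0.06 without microsphere keratin array 2, -0.50 without microsphere keratin array 1, -0.12 without keratin array 1 and -0.43 without keratin array 2. Cfd, the complement factor D secreted by adipocytes, read 315 and 177 in the microsphere keratin arrays, against 531 and 306 in the keratin arrays. Adipoq, the hormone adiponectin, read 120 and 65.2 after microsphere keratin, against 182 and 93.7 after keratin. Both overlapped, because array 1 was above array 2 in each group, but the pair differences were alike, -0.75 and -0.79 for Cfd and -0.60 and -0.52 for Adipoq. Hp, which encodes haptoglobin and was chosen on its values, did not overlap, at 180 and 128 after microsphere keratin and 310 and 206 after keratin. The mean level of the list was 7.38 and 6.79 in the microsphere keratin arrays, against 7.40 and 7.28 in the keratin arrays, so it was set mainly by microsphere keratin array 2.

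Macrophage, fibroblast and matrix genes differed more between array numbers than between treatments. The 19 macrophage and dendritic cell genes had a mean level of 6.49 and 5.90 after microsphere keratin, against 6.66 and 5.93 after keratin. Of these genes, 14 were lower on average (background 54.4%), 11 in both pairs (background 23.6%), and 0 had separate groups. H2-Ab1, an antigen-presenting molecule, read 136 and 83.2 after microsphere keratin, against 208 and 94.4 after keratin. The 15 dermal fibroblast genes had a mean level of 6.59 and 6.07 after microsphere keratin, against 6.58 and 6.06 after keratin, and a median difference of 0.00, which ranged from -0.36 without keratin array 2 to 0.22 without microsphere keratin array 2. The 33 extracellular matrix genes also had a median of 0.00, with -0.25 without keratin array 2 and 0.26 without keratin array 1. Col1a1, the main collagen of dermis, read 578 and 247 after microsphere keratin, against 521 and 183 after keratin. Array 1 was thus the higher one in both groups for these 3 lists. The 11 Schwann cell genes did not follow the array numbers, with a mean level of 5.77 and 5.71 after microsphere keratin and 5.80 and 5.89 after keratin. All 4 neutrophil genes tested were slightly lower in both pairs, with a median of -0.14, which was -0.07 without keratin array 1 and -0.05 without microsphere keratin array 2. The 5 T cell genes had a median of -0.10, which was 0.0091 without keratin array 1, -0.20 without keratin array 2 and -0.04 without microsphere keratin array 2. Heat shock genes had a median of 0.00 over 21 genes, 11 higher and 10 lower. Groups did not overlap for 3 in the lower direction (background 10.5%) and 1 in the higher (background 5.1%). Hspa1a, an inducible chaperone, was lower without overlap, at 44.9 and 52.6 after microsphere keratin and 61.6 and 65.9 after keratin.

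The 2 treatments were placed beside untreated array 2 and minoxidil array 2, 1 array of each group; array 1 of those groups was not used, because its signal was weak (3′ beta-actin of 47.2 for minoxidil and 656 for untreated). Over these 6 arrays, the 2 keratin arrays read above the other 4 for 11 of the 12 ultra-high-sulfur genes, 6 of 12 high-glycine-tyrosine genes, 1 of 10 high-sulfur genes and 9 of 31 suprabasal genes, against 560 of all 11235 genes. Both microsphere keratin arrays read below the other 4 for 5 of the 31 suprabasal genes, against 477 of all genes. Each of these counts could hold only genes already lower without overlap. Those were 11, 6, 1 and 12 in these lists, in the order given, and 1177 over all genes. The counts thus partly repeat that separation. The ultra-high-sulfur list had a mean level of 5.87 and 5.80 in the microsphere keratin arrays, 6.67 and 6.18 in the keratin arrays, 5.72 in minoxidil array 2 and 5.57 in untreated array 2. Krtap17-1, at 146 and 158 in the microsphere keratin arrays, read 117 in minoxidil array 2 and lower still in untreated array 2. The suprabasal list had a mean level of 5.93 and 5.84 after microsphere keratin, 6.16 and 5.98 after keratin, 5.81 in minoxidil array 2 and 5.85 in untreated array 2. In these arrays the ultra-high-sulfur difference thus lay in high keratin values rather than in microsphere keratin values below untreated array 2. With 1 array for each of the other groups, this order has no replicate check.

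The authors' deposited tables give log2 values of each treated array beside the untreated array of the same number, and the untreated value is the same for both treatments, so it cancels in their difference. Across probesets listed for both treatments, the slope of value-table differences on those in the authors' deposited tables was 0.440 for number 1 (8256 probesets, r = 0.839) and 0.438 for number 2 (3033 probesets, r = 0.932). The differences given above are therefore smaller than on the authors' scale. The authors' deposited tables rest on the same arrays and list only probesets that passed a fold against the untreated array of that number. The members they hold were therefore selected on these samples, for number 1 against the untreated array with weak signal. As background, of all genes tested that were listed, 2615 of 4978 were lower for number 1 and 735 of 1374 for number 2. In the authors' deposited tables, 7 of 7 listed ultra-high-sulfur genes were lower after microsphere keratin for number 1, with a median of -1.39, and 10 of 10 for number 2, with a median of -1.02. Of all keratin-associated proteins, 22 of 23 listed were lower for each number in the authors' deposited tables, with medians of -0.64 and -0.66. For Krtap4-16 the authors' deposited tables give -1.39 for number 1 and -1.66 for number 2, and for Krtap17-1 they give -1.95 and -0.66. Suprabasal genes had medians of -0.41 (18 of 19 lower) and -0.98 (5 of 5 lower) in the authors' deposited tables. Fast skeletal muscle genes again had opposite signs in the authors' deposited tables, with 16 of 16 listed higher for number 1 and 11 of 11 lower for number 2.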

How the data were processed

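RNA of skin with hair follicles was measured on HT_MG-430_PM arrays, as the file headers name them. The submitters' processing notes list RMA, Transcriptome Analysis Console and Affymetrix Expression Console with no versions. Intensity in the deposited value table, which covers 45141 probesets, is linear; how it was background-corrected and normalized is not given in the sources used here. The authors' deposited tables hold log2 values, a signed fold change, which is a score, and in 1 table p-values. The design foresaw log2 values, so the intensity was put on the log2 scale.

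Gene names came from the authors' deposited tables, which list 28918 probesets, 23804 with 1 symbol, and were chosen by fold in these samples. One of them, labelled minoxidil number 1 but holding microsphere columns, gave names only. Of the genes tested, 10550 matched a current RefSeq symbol and 384 a synonym. The series itself names no genome build. RefSeq gene starts of GRCm38.p6 served only to group neighbouring genes, and no coordinates are given.

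The 4 arrays were fitted with limma 3.58.1 in R 4.3.3 (lmFit, eBayes with trend, 2 residual degrees of freedom, Benjamini-Hochberg over all 11235 genes), tested on simulated data. No permutation test was used, since 2 arrays against 2 allow no exact two-sided p under 0.333. The members and the 42 gene lists were chosen with earlier results of these data known. Named genes were up to 12 per direction by gap, up to 6 per list by size of difference, and those stated as chosen afterwards. Any 2 arrays shared exactly equal values at 0 or 1 of the 45141 probesets. Alternatives changed normalization, background, filter, probeset choice, block and the arrays used. Figures were drawn with matplotlib 3.10.9.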

Additional observations from a re-analysis of the deposited data

How the results depend on the processing

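The count of 0 genes at an adjusted p below 0.05 (52 at an unadjusted p below 0.05, limma) was the same under quantile normalization, normexp background correction, other filters, the mean of a gene's probesets, all 8 arrays and every probeset. It ranged from 0 to 3 when 1 array was left out: without keratin array 1, Acss1, Foxc2 and Tspan8, named after their values were seen, were lower in microsphere keratin at an adjusted p of 0.0349 (-1.11, -0.52 and -0.92), with the lone array assumed to vary like the other group. The labels do not say that the array numbers pair samples. With a replicate block 0 genes were called and 193 had an unadjusted p below 0.05, and deviations from the group means correlated at 0.279 between same-numbered arrays across genes.

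Non-overlapping genes, 573 higher and 1177 lower, became 775 and 971 under quantile normalization, 987 and 1784 with no filter, and 278 and 656 with the filter at the median. With 1 array left out the criterion is easier to meet, and they numbered 1798 to 4246 higher and 3071 to 4606 lower. The medians ranged, with 1 array left out, from -0.44 to -0.12 for keratin-associated proteins, -0.20 to 0.12 for hair shaft keratins, -0.25 to -0.026 for suprabasal genes and -0.20 to 0.44 for cell division genes, whose direction turned. On the authors' log2 columns, for members listed in both numbers, they were -0.70, 0.79 (1 member) and -0.78 for the first 3 of these lists. The filter at the median turned hair shaft keratins to 0.015. The ultra-high-sulfur median without probesets ending in x_at or s_at, an alternative chosen after seeing the data, was -0.56, with 10 of 11 genes not overlapping. The cause of each of these shifts was not tested, apart from the fewer arrays or genes that a setting uses.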
